A study of Mus musculus with 34 samples.

Results

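The 1135 promoters described here are the windows of 1000 bp on each side of the annotated 5′ end of the protein-coding genes whose name starts with Olfr, the olfactory receptor genes of the mouse. They are 5.17% of the 21938 protein-coding promoters of GENCODE M21 on the mm10 assembly, lie on 18 chromosomes and carry 1134 names, because Olfr290 is listed at 2 gene identifiers. They were chosen by name and position, without use of any measured value. H3K4me3 was profiled by CUT&RUN, in which protein A-MNase is tethered by an antibody to unfixed nuclei and releases the DNA around the marked nucleosomes. The cells were villus cells scraped from the normal-appearing small intestine of C57BL/6J mice. There were 2 libraries of wild-type mice and 2 libraries of ApcMin/+ mice, all aged 5 weeks according to the labels, whereas the methods of the study give a slightly older age. ApcMin/+ mice carry 1 truncated copy of the tumour suppressor gene Apc in every cell of the body, and the scraped villi hold epithelium together with whatever other cells came off with it.

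Olfactory receptors are G-protein-coupled receptors that bind odorants on the cilia of olfactory sensory neurons. Each neuron transcribes a single allele of a single receptor gene, and in other cell types the gene clusters are packed into silent chromatin. H3K4me3 marks nucleosomes just downstream of the start sites of active genes and of most CpG islands, and is low elsewhere. Only this mark was analysed here, so the word silent refers to the absence of the mark and not to a measurement of RNA.

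The windows were poor in CpG and rich in A and T. Their mean GC content was 36.7%, against 51.4% at the other 20803 protein-coding promoters. The median observed-to-expected CpG ratio was 0.109 at the Olfr windows and 0.498 at the others, and 92.6% of the Olfr windows, against 20.02% of the others, had a ratio under 0.2. In the 300 bases from 250 before to 50 after the start, the median number of CpG was 1 at Olfr genes and 12 at the others, and 35.3% of the Olfr stretches held none. The 250 bases before the annotated start are shown for 5 genes, read on the strand of the gene, with each CpG in capitals. Olfr1410 had the highest mean signal of all members over the 4 libraries, and Olfr73 had one of the lowest. Olfr558 and Olfr78 are receptors reported outside the nose. Vil1, which encodes the villin of the enterocyte brush border, is shown as a promoter that carried the mark.
Olfr1410 (mm10 chr1:92605532-92605781, + strand, 1 CpG): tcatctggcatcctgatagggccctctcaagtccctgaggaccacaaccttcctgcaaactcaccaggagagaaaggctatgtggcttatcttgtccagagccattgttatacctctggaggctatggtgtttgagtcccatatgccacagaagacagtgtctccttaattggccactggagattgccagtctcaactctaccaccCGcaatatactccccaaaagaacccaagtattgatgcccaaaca
Olfr558 (mm10 chr7:102701965-102702214, + strand, 0 CpG): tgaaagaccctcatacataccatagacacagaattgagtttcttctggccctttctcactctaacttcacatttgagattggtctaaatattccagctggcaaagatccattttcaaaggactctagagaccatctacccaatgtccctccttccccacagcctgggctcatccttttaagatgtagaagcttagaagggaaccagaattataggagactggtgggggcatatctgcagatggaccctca
Olfr78 (mm10 chr7:102759472-102759721, - strand, 1 CpG): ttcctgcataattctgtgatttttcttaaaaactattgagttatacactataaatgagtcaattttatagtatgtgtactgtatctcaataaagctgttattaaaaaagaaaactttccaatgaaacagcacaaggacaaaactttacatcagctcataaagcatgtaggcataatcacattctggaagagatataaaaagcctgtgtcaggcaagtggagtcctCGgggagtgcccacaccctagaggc
Olfr73 (mm10 chr2:88037700-88037949, - strand, 0 CpG): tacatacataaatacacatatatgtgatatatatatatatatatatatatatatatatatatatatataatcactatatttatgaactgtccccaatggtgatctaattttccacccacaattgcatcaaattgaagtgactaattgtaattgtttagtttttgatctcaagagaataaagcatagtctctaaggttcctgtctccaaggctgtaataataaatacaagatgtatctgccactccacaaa
Vil1 (mm10 chr1:74409126-74409375, + strand, 5 CpG): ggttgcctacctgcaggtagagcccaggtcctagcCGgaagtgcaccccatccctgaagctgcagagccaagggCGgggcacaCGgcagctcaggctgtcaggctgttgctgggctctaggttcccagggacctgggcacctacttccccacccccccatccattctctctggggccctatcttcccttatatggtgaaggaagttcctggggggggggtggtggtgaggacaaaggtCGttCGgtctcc

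The letters of 3 motifs were searched on both strands of the 300 bases. TAATTA, the core bound by homeodomain proteins such as Lhx2, was found at 24.1% of Olfr promoters and at 5.30% of all protein-coding promoters. TCCCNNGGGA, the palindrome of Ebf proteins, was found at 2.56% of Olfr promoters and 0.994% of all promoters. TATAAA, the TATA box core, was found at 33.4% of Olfr promoters and 12.6% of all promoters. Among 1454 other promoters whose GC content lay below the upper quintile of the Olfr windows, the shares were 14.0% for TAATTA, 0.413% for TCCCNNGGGA and 32.0% for TATAAA. This limit caps GC content without matching it, and the Olfr shares are over all quintiles, so base composition can still differ. Matches of TAATTA and TATAAA can share bases. A match is a run of letters and not a measured binding site.

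The Olfr promoters lay below the genome-wide mean in all 4 libraries. The deposited value is coverage per base, scaled so that every library has about the same total, and the genome-wide mean was 0.366 to 0.367 units. Averaged over the 1135 windows, wild-type replicate 1 had 0.201 units, wild-type replicate 2 had 0.337, ApcMin/+ replicate 1 had 0.174 and ApcMin/+ replicate 2 had 0.236; values are given in this order below. This corresponds to 0.549, 0.918, 0.476 and 0.645 times the genome-wide mean of the same library, with 95% exact Poisson intervals of 0.508 to 0.593, 0.889 to 0.949, 0.452 to 0.501 and 0.622 to 0.669. The intervals cover counting error only, from 653, 3658, 1464 and 2933 fragments over all windows. On the log2 scale the ratio averaged -0.67 ± 0.41 (SD, n = 4 libraries; two-sided exact sign-flip test, p = 0.125, which is the smallest that 4 libraries allow). The wild-type replicate 2 library stood closest to the genome-wide mean and the other 3 libraries lay well below it.

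The other protein-coding promoters had mean signals of 2.73, 1.83, 7.21 and 2.46 in the same order of libraries, or 5.00 to 19.7 times the genome-wide mean. The Olfr promoters were thus at 7.38%, 18.4%, 2.42% and 9.59% of the level of the other promoters. The log2 ratio was -3.74 ± 1.22 (SD, n = 4 libraries), a 13.4-fold lower level, in the same direction in 4 of 4 libraries (two-sided exact sign-flip test, p = 0.125, again the smallest possible). The order of the libraries was reversed between both sets. The ApcMin/+ replicate 1 library had the highest signal at other promoters and the lowest at Olfr promoters, while the wild-type replicate 2 library had the lowest at other promoters and the highest at Olfr promoters. Each track is scaled to a fixed total, so more signal at promoters leaves less for the remainder of the genome. The part of this scaling in the reversed order was not tested.

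Whether the ratio fell below or above 1 depended on the reference level. Background was taken as the mean signal outside enriched regions and more than 5000 bp from any annotated start site, and it was 0.279, 0.322, 0.198 and 0.298 units. The Olfr mean was 0.720, 1.05, 0.881 and 0.792 times that background. Against the flanks of the same genes, from 5 to 20 kb on each side, the ratio was 0.918, 1.17, 1.00 and 1.05. The mean log2 ratio to the flanks was 0.04 ± 0.15 (SD, n = 4 libraries; two-sided exact sign-flip test, p = 0.625). Against background stretches of the same GC content the Olfr mean was higher in 4 of 4 libraries, at 1.24, 1.23, 1.17 and 1.19 times the reference. When the background stretches were matched on GC content and on the share of repeat-masked bases, the ratio was 1.06, 1.04, 0.991 and 1.01 (mean log2 ratio 0.04 ± 0.05; two-sided exact sign-flip test, p = 0.375). In that last comparison 3 libraries lay above 1 and 1 below it, and the ratio differed from 1 by less than the spread between libraries. Both composition-matched references were chosen after the data had been seen.

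**Figure D1:**
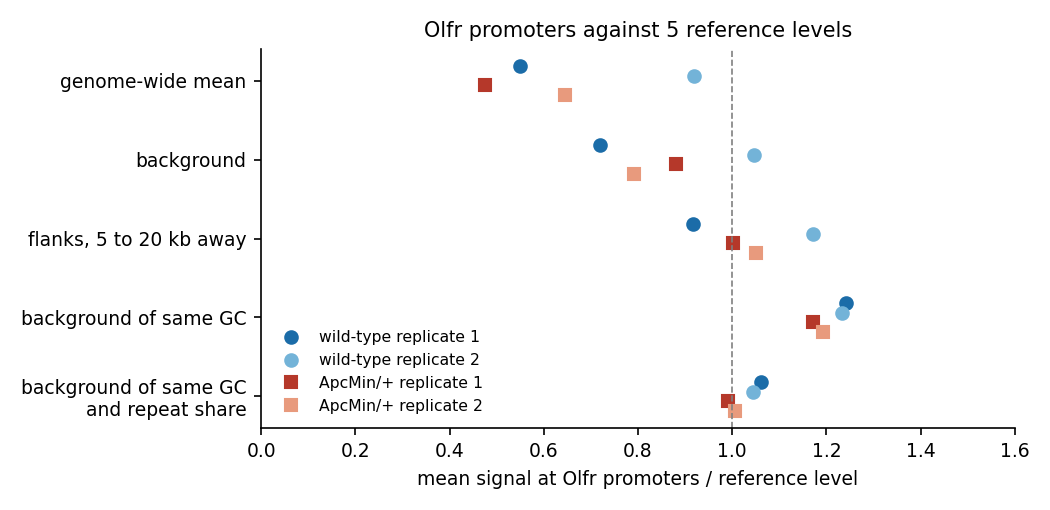
Mean signal over the 1135 Olfr windows divided by 5 reference levels (x axis, ratio), 1 point per library, circles for wild type and squares for ApcMin/+; the dashed line marks a ratio of 1. All 4 libraries lie below 1 against the genome-wide mean and between 0.991 and 1.06 against background of the same GC content and repeat share.

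Single windows held few fragments, and most of the spread between members was at that scale. A fragment that lies whole inside a window adds 0.350 units in wild-type replicate 1, close to the genome-wide mean itself, and 0.105, 0.135 and 0.0914 units in the other 3 libraries, in which depth was 4790000, 3700000 and 5470000 tags against 1430000. No fragment was seen in 687 windows (60.5%) of wild-type replicate 1, 53 (4.67%) of wild-type replicate 2, 328 (28.9%) of ApcMin/+ replicate 1 and 149 (13.1%) of ApcMin/+ replicate 2. Among the other promoters the empty shares were 14.4%, 4.62%, 8.88% and 4.73%, so that both sets were alike in wild-type replicate 2. An empty window allows a level of up to 3 fragments, which is 2.86, 0.855, 1.11 and 0.749 times the genome-wide mean. The average number of fragments per window was 0.575, 3.22, 1.29 and 2.58, and the variance over the mean was 1.52, 1.23, 1.23 and 1.96, where 1 would be counting error alone. Fragments were seen in all 4 libraries at 317 members and in no library at 9. The signal was below the genome-wide mean in every library at 515 members (45.4%) and above it in every library at 15, whereas 61.5% of the other promoters were above it in every library. A window with no fragment counts as below in that library, as at the 687 windows of wild-type replicate 1. The share of other promoters below in every library was not taken. Between pairs of libraries the rank correlation across the 1135 members was 0.17 to 0.31, as a description, since members share libraries, clusters and base composition.

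**Figure D2:**
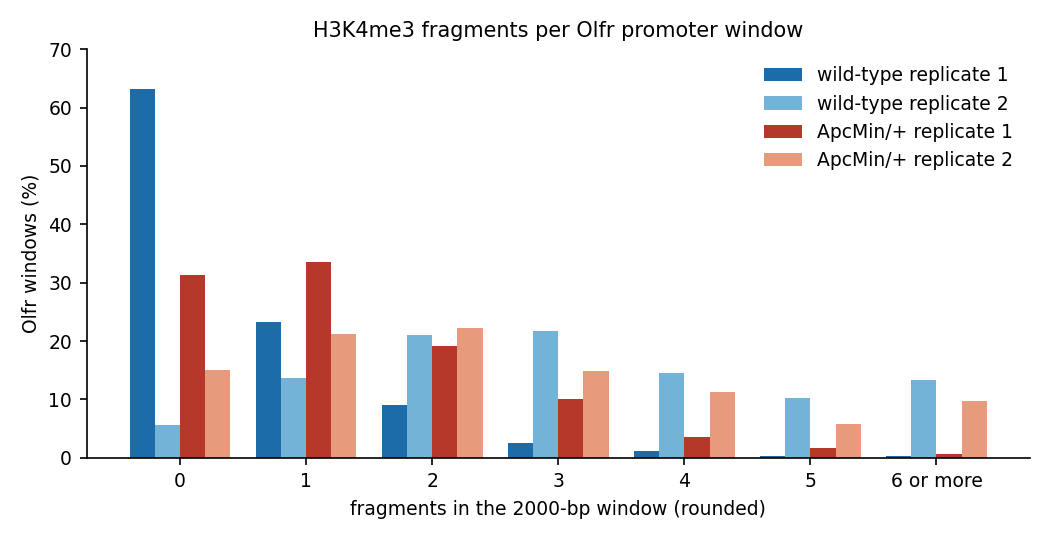
Share of the 1135 Olfr windows (y axis, percent) that held 0 to 6 or more fragments, rounded to whole fragments (x axis), 1 bar per library. Windows with no fragment prevail in wild-type replicate 1 and windows with 1 to 4 fragments in the other 3 libraries.

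Among the members, signal rose with GC content. When the windows were divided into quintiles by GC content, the lowest quintile (230 windows, 26.6% to 32.6% GC) had 0.192, 0.665, 0.283 and 0.357 times the genome-wide mean in the 4 libraries. The highest quintile (226 windows, 40.4% to 55.1% GC) had 1.37, 1.20, 0.775 and 1.17 times. The highest quintile was above the lowest by 7.11-fold in wild-type replicate 1, 1.81-fold in wild-type replicate 2, 2.74-fold in ApcMin/+ replicate 1 and 3.29-fold in ApcMin/+ replicate 2. Background stretches of the same GC content followed the same course, from 0.144 to 1.00 in wild-type replicate 1, 0.582 to 1.01 in wild-type replicate 2, 0.258 to 0.640 in ApcMin/+ replicate 1 and 0.278 to 1.02 in ApcMin/+ replicate 2. The steepness thus differed between libraries in members and background alike. The rank correlation of the mean signal over the 4 libraries with GC content was 0.58 across members and with the share of unique 25-base words 0.13. Words of 25 bases that occur once on the chromosomes were about as common as at other promoters. Of the 25-base words in the Olfr windows 86.0% occurred once on the 21 chromosomes, against 88.0% at the other promoters, and at the 443 members with at least 95% unique words the ratio to the genome-wide mean was 0.653, 1.01, 0.463 and 0.692.

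**Figure D3:**
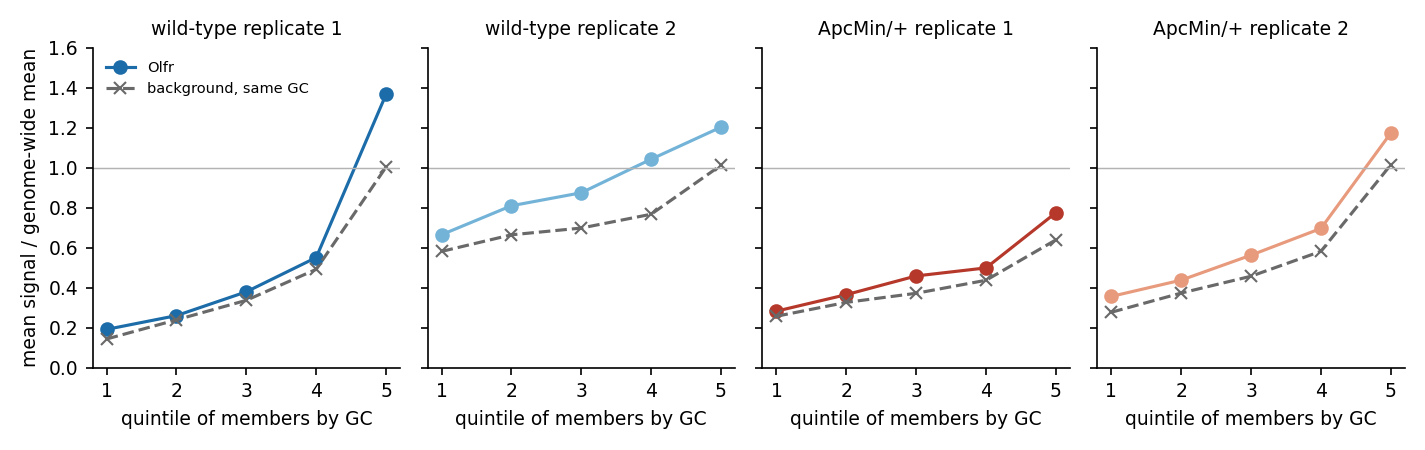
Mean signal relative to the genome-wide mean (y axis) for quintiles of the Olfr windows ordered by GC content (x axis, lowest to highest), 1 panel per library; coloured circles are Olfr windows and grey crosses are background stretches of the same GC content. Both rise from left to right in every library, from 0.192 to 1.37 for Olfr windows in wild-type replicate 1.

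Around the annotated start the Olfr profile was nearly flat beside that of the other promoters. In bins of 20 bp out to 2000 bp on each side, the average over Olfr genes ranged from 0.266 to 0.834 times the genome-wide mean in wild-type replicate 1, 0.730 to 1.16 in wild-type replicate 2, 0.373 to 0.573 in ApcMin/+ replicate 1 and 0.460 to 0.852 in ApcMin/+ replicate 2. The other promoters reached 15.2, 9.77, 36.5 and 12.7 times the genome-wide mean, with the highest bin starting 120 to 140 bp downstream of the start. A small rise was present at Olfr genes in the first 200 bp downstream. Relative to the outer parts of the profile, more than 1500 bp away, the first 200 bp stood 1.36-, 1.29-, 1.12- and 1.34-fold higher (mean log2 ratio 0.35 ± 0.13, n = 4 libraries; two-sided exact sign-flip test, p = 0.125, the smallest possible). The same ratio at the other promoters was 6.43, 4.79, 7.11 and 5.15. The rise at Olfr genes was smallest in ApcMin/+ replicate 1, the library in which the other promoters stood highest. The GC content of the Olfr genes was 39.3% in those 200 bp and 37.5% in the outer parts, and its part in the rise was not tested. The rise was measured after the profile had been seen.

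**Figure D4:**
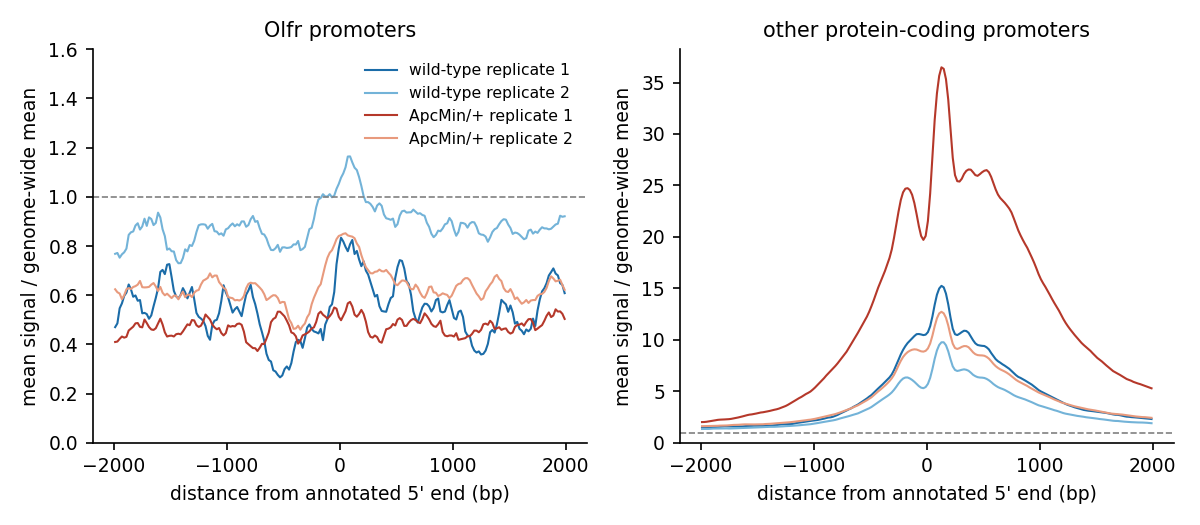
Average signal relative to the genome-wide mean (y axis) in bins of 20 bp by distance from the annotated 5′ end in the direction of transcription (x axis), for 1135 Olfr promoters (left) and 20803 other protein-coding promoters (right, with a different y scale), 1 line per library. Olfr lines stay at or under 1.16 while the other promoters peak between 9.77 and 36.5.

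The annotated 5′ end of most Olfr genes lies in a non-coding leader. At 1066 members it was upstream of the first coding base, with a median genomic distance of 3009 bp over all members, and at 69 members the annotation starts at the coding sequence. The ratio to the genome-wide mean was 0.525, 0.915, 0.477 and 0.636 at the first kind and 0.921, 0.974, 0.462 and 0.784 at the second. Both kinds were below 1 in all 4 libraries.

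Olfr genes lie in clusters, and the level differed between clusters along with their base composition. Members whose 5′ ends followed within 1 Mb of each other formed 50 clusters, of which 22 had at least 10 members and held 1041 members together. Averaged over the 4 libraries, the ratio to the genome-wide mean ran from 0.394 to 1.45 over these 22 clusters. All 22 were below 1 in ApcMin/+ replicate 1, 20 in wild-type replicate 1, 19 in ApcMin/+ replicate 2 and 14 in wild-type replicate 2. The highest was a group of 13 genes from Olfr62 to Olfr1328 on chromosome 4 (45.9% GC), at 2.42, 0.999, 0.998 and 1.39. The lowest was a group of 39 genes from Olfr1275 to Olfr1318 on chromosome 2 (33.5% GC), at 0.244, 0.619, 0.277 and 0.434. The largest cluster, 227 genes from Olfr987 to Olfr1274-ps on chromosome 2, was at 0.263, 0.749, 0.339 and 0.400. The cluster of 129 genes on chromosome 7 that holds Olfr558 and Olfr78, where the class I receptors shared with fish lie, was at 0.687, 1.00, 0.554 and 0.739, in the middle of the range. The rank correlation between the GC content of a cluster and its average ratio was 0.95 over the 22 clusters, as a description, since all values come from the same 4 libraries.

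**Figure D5:**
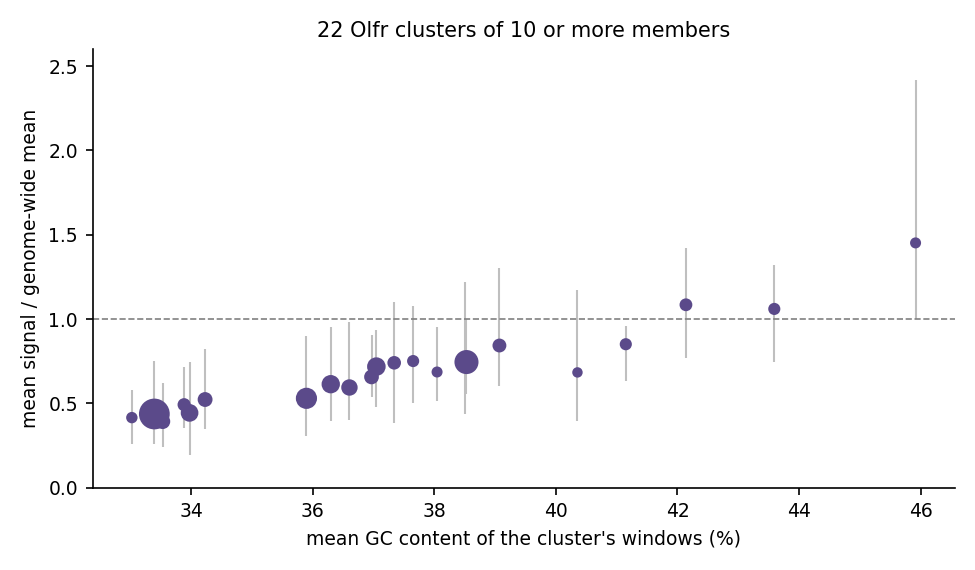
Signal relative to the genome-wide mean (y axis) against the mean GC content of the windows (x axis, percent) for the 22 Olfr clusters of 10 or more members; points are means over the 4 libraries with area growing with the number of members, and grey lines run from the lowest to the highest library. The cluster of lowest signal lies at 0.394 and the cluster of highest GC content at 1.45.

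Few members overlapped an enriched region. Regions were called on the mean of the 4 tracks at 5 times the genome-wide mean, and 16 of 1135 Olfr windows (1.41%) overlapped one, against 12761 of the 20803 other promoters (61.3%) and 58.2% of all protein-coding promoters. Without the shallow wild-type replicate 1 library, 2 Olfr windows (0.176%) and 58.5% of the other promoters did so. Called in 1 library alone, the share of Olfr windows was 12.2%, 7.05%, 1.85% and 5.73%. The share of the other promoters was then 71.8%, 62.4%, 60.9% and 70.1%. These calls gave 252231, 136997, 57131 and 159207 regions, against 55851 on the mean of the 4 tracks. No member had a mean signal over the 4 libraries of 2 or more, the level reached by 9931 of the other promoters (47.7%). The mean signal of members ran from 0 to 1.28 with a median of 0.204, 2 members were at 1 or more, and 80 were at 0.5 or more.

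The 6 members of highest mean signal, apart from those that share a window with another gene, were Olfr1410, Olfr1413, Olfr523, Olfr1339, Olfr156 and Olfr1328. Olfr1410 (ENSMUSG00000063583.6) had signals of 2.34, 0.775, 0.778 and 1.23, from 6.68, 7.41, 5.76 and 13.5 fragments. It was above the genome-wide mean in every library, and its wild-type and ApcMin/+ values overlapped. Olfr1413, in the same group on chromosome 1, had 2.08, 0.829, 0.495 and 0.738. Olfr523 on chromosome 7 had 1.22, 0.791, 0.270 and 1.55, and its window had the highest GC content of all members, 55.1%. Olfr1339 and Olfr1328 both lie in the chromosome 4 group named above. Olfr1339 had 2.31, 0.439, 0.270 and 0.548, so its place rested on wild-type replicate 1, and Olfr1328 had 1.39, 0.407, 1.18 and 0.366. Olfr1410 and Olfr1413 also had their highest signal in wild-type replicate 1, so the order depended on that shallow library. Olfr370, at rank 10 with 0.349, 1.03, 0.811 and 0.992, exceeded Olfr1410 in wild-type replicate 2 and ApcMin/+ replicate 1. Olfr156 on the same chromosome had 0.698, 0.792, 0.660 and 1.26. The GC content of the 6 windows was 44.6% to 55.1%. A level of 5 times the genome-wide mean in a single library was reached by 3 members, Olfr1410, Olfr1339 and Olfr1413, and only in wild-type replicate 1.

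Windows that hold the start of another gene had little signal too. There were 10 such members, with 0.710, 0.931, 0.489 and 0.526 times the genome-wide mean. The highest were Olfr1411, which shares its window with the pseudogene Gm44099 and had signals of 1.05, 0.941, 0.540 and 0.193, and Olfr701, which shares it with the non-coding RNA 4930458B22Rik and had 0.349, 0.504, 0.629 and 0.548. Olfr287, beside the protein-coding gene Gm44579, had 0.698, 0.314, 0.270 and 0.731, and Olfr846, beside the pseudogene Gm7751, had 0, 0.668, 0.135 and 0.0913. The pairs cannot be told apart at this window size.

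Receptors with reported roles outside the nose, or with well-known ligands, also had little signal. Of 10 such genes 9 are annotated as protein-coding, and Olfr151, listed as a polymorphic pseudogene, is not a member. Their mean ratio to the genome-wide mean was 0.553, 0.853, 0.596 and 1.15, and none of the 9 overlapped an enriched region or exceeded the genome-wide mean in all libraries. Olfr78, a receptor for short-chain fatty acids and lactate reported in enteroendocrine cells of the gut, had signals of 0, 0.352, 0 and 0.250, from no fragment in replicate 1 of either genotype and 3.37 and 2.74 fragments in the others. Olfr558, a receptor for branched short-chain fatty acids reported in enterochromaffin cells, had 0.349, 0.421, 0.405 and 0.548. At both genes the wild-type and ApcMin/+ values overlapped. In windows of 500 bp on each side the mean signal over the 4 libraries was 0.235 in place of 0.431 at Olfr558. Olfr544, a receptor for azelaic acid, had 0.349, 0.314, 0.270 and 1.05, and was high in 1 ApcMin/+ library of 2. Olfr1393, reported in the kidney proximal tubule, had 0.554, 0.314, 0.540 and 0.547. Olfr16, reported in sperm and muscle, had 0.349, 0.105, 0.135 and 0.366, and Olfr2, the octanal receptor, had 0.221, 0.314, 0 and 0.218. Olfr17 had 0, 0.418, 0.270 and 0.365, and Olfr160 had 0, 0.580, 0.270 and 0.432. Olfr73, the eugenol receptor, had 0 in 3 libraries and 0.0719 in ApcMin/+ replicate 1. Cells of a rare type are diluted in scraped villi, and a mark on few cells cannot be told apart from none at this depth.

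The other chemosensory receptors are the closest comparison in kind. The 381 promoters of the vomeronasal receptors Vmn1r and Vmn2r, the bitter taste receptors Tas2r and the trace amine-associated receptors Taar had 0.440, 0.732, 0.526 and 0.529 times the genome-wide mean. The Olfr level was higher in 3 libraries and lower in ApcMin/+ replicate 1, with a mean log2 ratio of 0.20 ± 0.23 (SD, n = 4 libraries; two-sided exact sign-flip test, p = 0.25). This value depended on the window and on 1 library. It was 0.28 ± 0.14 in windows of 2000 bp on each side (exact sign-flip test, p = 0.125, the smallest possible), 0.053 ± 0.28 in windows of 500 bp and 0.31 ± 0.022 without ApcMin/+ replicate 1. Unique 25-base words made up 60.3% of these windows, against 86.0% of the Olfr windows, while GC content was alike at 37.1% and 36.7%. By family the ratios were 0.421, 0.723, 0.604 and 0.523 for 209 Vmn1r promoters, 0.273, 0.606, 0.364 and 0.392 for 122 Vmn2r promoters, 0.703, 1.11, 0.431 and 0.834 for 35 Tas2r promoters and 1.45, 1.02, 0.973 and 1.01 for 15 Taar promoters. The Taar windows had the highest GC content of the 4 families, 42.2%. The 4164 other promoters with a CpG ratio under 0.2, which include many tissue-specific genes, had 1.64, 1.29, 2.54 and 1.54 times the genome-wide mean. Their GC content was 44.1%, and 14.7% of them overlapped an enriched region. Their median signals were 0.349, 0.346, 0.269 and 0.365 units, not above the genome-wide mean in any library. In the GC range of the middle Olfr quintile, 345 of them had 0.488, 0.746, 0.863 and 0.491 times that mean. The Olfr windows there had 0.380, 0.875, 0.459 and 0.563. In the range of the highest quintile, 2919 had 1.98, 1.44, 3.05 and 1.83, against 1.37, 1.20, 0.775 and 1.17.

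Of 14 genes of olfactory signal transduction and receptor trafficking, 5 (35.7%) overlapped an enriched region (Gng13, Adcy3, Pde1c, Omp and Ric8b) and 9 did not, against a share of 58.2% overlapping among all protein-coding promoters. Ric8b, an exchange factor for G-alpha subunits, had signals of 8.02, 4.10, 20.9 and 6.85. Cnga2, the channel subunit that opens with cyclic AMP, had 0.349, 0.105, 0 and 0.217, and Rtp1, which carries receptors to the cell surface, had 1.40, 0.444, 0.135 and 0.639. Omp, the olfactory marker protein, had 1.89, 1.25, 0.270 and 2.06, low in the 1 library where the other promoters stood highest. Of 14 genes of receptor choice, 8 (57.1%) overlapped an enriched region, about the share of all promoters. These were Kdm1a, Lbr, Ehmt1, Ehmt2, Bptf, Ldb1, Atf5 and Eif2ak3. The other 6, Lhx2, Emx2 and Ebf1 to Ebf4, did not. Kdm1a, a histone lysine demethylase, had 1.05, 1.19, 5.21 and 2.39, and Lhx2 had 0.349, 0.328, 0.135 and 0.914. In the same libraries 11 of 12 enterocyte genes overlapped an enriched region, against 2 of 10 enteroendocrine, 1 of 8 neuron, 3 of 8 immune and 2 of 8 mesenchyme genes, and Vil1 had 12.1, 4.55, 33.0 and 6.97.

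Between genotypes, the level of the family overlapped when taken relative to the genome-wide mean, to background or to the flanks. It did not overlap relative to both composition-matched references, which were chosen after the data had been seen. Relative to background it was 0.883 ± 0.230 in wild type and 0.836 ± 0.063 in ApcMin/+ (SD, n = 2 libraries each). Relative to the flanks it was 1.04 ± 0.18 and 1.03 ± 0.035. The ratio to the genome-wide mean was 0.734 ± 0.261 in wild type and 0.560 ± 0.119 in ApcMin/+ (SD, n = 2 libraries each), and the groups overlapped. The difference on the log2 scale was -0.36 (p = 0.667 by the exact permutation test, two-sided; the design allows no p under 0.333). The value was 0.013 when wild-type replicate 2 was omitted, and -0.73 when the other wild-type library was. Against background of the same GC content the difference was -0.066, and with repeat share matched too it was -0.076 (exact permutation test, p = 0.333 for each, the smallest possible). By both of these references the 2 ApcMin/+ libraries lay below the 2 wild-type libraries, at 1.17 and 1.19 against 1.24 and 1.23 for GC content alone. A shift in the share of cell types cannot be told apart from a change of the mark per cell in these bulk samples.

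Member by member, limma was run on log2(signal + 1) over all 21938 promoters. It called 0 of 1135 Olfr promoters and 0 (0%) of all promoters at an adjusted p of 0.05. With no filter and 2 libraries per genotype, a lack of calls does not show that the mark was unchanged. At an unadjusted p under 0.05 there were 86 members (7.58%), 33 higher and 53 lower in ApcMin/+, and 579 of all promoters (2.64%). With wild-type replicate 1 left out 115 members (10.1%) were called, against 321 of all promoters (1.46%), and with wild-type replicate 2 left out 30 (2.64%), against 214 of all promoters (0.975%). All of these calls were lower in ApcMin/+, and the lone wild-type library is there assumed to vary like the others. At 86 Olfr promoters (7.58%) the lower ApcMin/+ value exceeded the higher wild-type value, against 25.9% of all promoters, and at 183 (16.1%) the order was the opposite, against 7.19% of all promoters. The median log2 difference was -0.05 over the members and 0.35 over all promoters. Members without overlap are named here from those whose signal averaged 0.5 or more, a limit that can be passed through 1 genotype alone, so that no count over them is given. Higher in ApcMin/+ were Olfr658, with 0.349 and 0.313 in wild type and 0.675 and 0.822 in ApcMin/+ (log2 difference 0.39, adjusted p = 0.76, limma), and Olfr701, with a log2 difference of 0.16 (adjusted p = 0.76, limma). Centring each library on the median of the promoters with a mean signal of 2 or more lowered every log2 difference by the same amount. All 1135 members then lay below 0, these included. The largest decreases among members that passed this limit were at Olfr356, with 1.74 and 0.961 in wild type and 0.405 and 0.186 in ApcMin/+, at Olfr552, with 1.05 and 0.889 against 0.0332 and 0.183, and at Olfr705, with 0.772 and 1.15 against 0 and 0.389. Their log2 differences were -0.85, -0.83 and -0.73 (adjusted p = 0.76 for each, limma), were -1.88, -2.46 and -2.24 with a pseudocount of 0.1 and -0.26, -0.22 and -0.20 with a pseudocount of 5, and each rested on 14.2 fragments or fewer per genotype.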

How the data were processed

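H3K4me3 CUT&RUN libraries of villus cells from 2 wild-type and 2 ApcMin/+ mice were used, grouped by the genotype in the labels. According to its methods, the study trimmed the reads, used Bowtie2 2.3.4.2 for alignment to mm10, Picard 2.18.12 to drop duplicates and samtools 1.9 to drop alignments with a MAPQ below 10, and retained fragments from 150 to 500 bp. The deposited tracks hold signal: HOMER coverage at each base, which the authors brought to a common depth of 10000000 tags, with no subtraction of a no-antibody control. Count models were not applied to these scaled values, and a fragment number is the summed signal of a window divided by the signal per tag. Whether a tag maps depends on the sequence, and short reads in near-identical receptors can be lost by the MAPQ filter.

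Promoters were windows of 1000 bp on each side of the 5′ ends of GENCODE M21 protein-coding genes. Sequence was read from GRCm38.p6, whose chromosome lengths are those of mm10. Enriched regions had at least 5 times the genome-wide mean in bins of 100 bp on the mean of the 4 tracks, were joined over gaps of up to 500 bp and were at least 300 bp long. Background stretches of 2000 bp outside them, more than 5000 bp from any start, were averaged per percent of GC content, and per percent of GC content and class of repeat share for the second reference. Family values were compared by two-sided exact sign-flip tests over the 4 libraries or exact permutation tests of 2 libraries against 2. Single promoters were tested with limma 3.58.1 (R 4.3.3, empirical Bayes with a trend) on log2(signal + 1) over all 21938 promoters with no filter. Adjustment of p-values was by Benjamini-Hochberg, with a threshold of 0.05. The script was tested on simulated data, where calls of known changes were required only of a fit with a filter, unlike the fit used here. Other steps ran in Python 3.11.15 (scipy 1.17.1 and numpy 2.4.6).

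Named members were the 6 of highest mean signal whose window holds no start of a gene outside the family, the 4 highest whose window does, 10 well-known receptors, and, among members of mean signal 0.5 or more whose genotypes did not overlap, up to 3 of largest difference in each direction. The named members and the gene lists were chosen with earlier results of these data known. The GC quintiles, the clusters and the first 200 bp of the profile were defined after the data had been seen. Depth was 1430000, 4790000, 3700000 and 5470000 tags, so that 1 fragment is 0.350, 0.105, 0.135 and 0.0914 units in a window. The H3K9me3, H3, no-antibody and RNA libraries were not analysed here.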

Additional observations from a re-analysis of the deposited data

How the results depend on the processing

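Windows of 500 or 2000 bp on each side, leaving out shared or enriched windows and background as the reference kept the direction of each family result to which they applied. The log2 ratio to the genome-wide mean, -0.67, was 0.27 against background of the same GC content and 0.037 when repeat share was matched too. With each library left out in turn it was -0.86 to -0.54, the ratio to other promoters -4.17 to -3.20, the ratio to other chemosensory receptors 0.15 to 0.31 and the genotype difference -0.73 to 0.013, above 0 only without wild-type replicate 2. Among named members, the mean signal in windows of 500 bp was 0.397 in place of 0.239 at Olfr16, 0.235 in place of 0.431 at Olfr558, 0.675 in place of 0.489 at Olfr1393 and 1.03 in place of 0.540 at Olfr658, and in windows of 2000 bp 0.347 in place of 0.507 at Olfr701. No median over members was compared, since it was 0 in wild-type replicate 1.

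The limma count of 0 Olfr calls became 115 when wild-type replicate 1 was left out and 30 when wild-type replicate 2 was, all lower in ApcMin/+, where all promoters gave 321 (1.46%) and 214 (0.975%), and it was 0 without either ApcMin/+ library. There the lone wild-type library is assumed to vary like the others, and the ApcMin/+ libraries were both at 0 at 34 of the 115 and 12 of the 30 calls. Pseudocounts of 0.1 and 5, quantile normalization, centring and a filter at a mean signal of 0.2, added later and passed by 579 members, gave 0 Olfr calls; no member passed a filter at 2. Centring used the median of the promoters with a mean signal of 2 or more, a level that no member reached. It moved the median difference over all promoters from 0.35 to -0.50, and every member then lay below 0. Olfr658 was at -0.46 and Olfr701 at -0.70 after centring, and Olfr701 was at -0.049 in the 500 bp window. Olfr552 was among the calls made with 1 wild-type library, whichever was left out.

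The labels number the replicates in each genotype, but nothing ties the same number to a shared litter or day, and the replicate differences correlated at r = 0.20 over 9931 promoters. With the replicate block the family difference was -0.36 and 0 Olfr promoters were called. Depth limits single windows most in wild-type replicate 1.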

Other observations

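The 57 promoters of keratin-associated proteins (Krtap), a clustered family of hair and skin, had 1.26, 1.11, 0.635 and 1.14 times the genome-wide mean in wild-type replicates 1 and 2 and ApcMin/+ replicates 1 and 2. Their windows had a GC content of 45.0%, above that of the Olfr windows, and 4 of 57 overlapped an enriched region. As at Olfr promoters, the lowest value was that of ApcMin/+ replicate 1, the library with the highest signal at other promoters. The 397 promoters of zinc finger genes (Zfp), another large family in clusters but one with CpG-rich starts, had 9.28, 6.01, 25.03 and 8.42 times the genome-wide mean, and 313 of them (78.8%) overlapped an enriched region.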
